A study of Oryza sativa with 45 samples.

Results

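Catalase, ascorbate peroxidase (APX) and superoxide dismutase (SOD) are the enzymes that remove superoxide and hydrogen peroxide from plant cells, and 10 of their genes were followed in rice seedlings that germinated and grew underwater. The 10 were chosen by identifier, for the enzyme they encode, from the 35677 genes of the count table. Earlier results of these data were known when they were chosen. They are the catalase genes CATA (OS02G0115700), CATB (OS06G0727200) and CATC (OS03G0131200), the APX genes APX1 (OS03G0285700), APX2 (OS07G0694700) and APX8 (OS02G0553200), and the SOD genes for cytosolic copper/zinc SOD 1 (cCuZnSOD1, OS03G0351500) and SOD 2 (cCuZnSOD2, OS07G0665200), plastid copper/zinc SOD (pCuZnSOD, OS08G0561700) and mitochondrial manganese SOD (MnSOD, OS05G0323900). The digits after OS give the chromosome, and the table itself names no gene. The study's own annotation tables name 4 of the 10 (CATA, CATC, APX8 and MnSOD), so the other 6 names rest on the identifiers with which they were chosen. All 10 passed the filter on low counts, as did 26180 genes in all.

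The seedlings were of the indica cultivar IR64 and of 3 near-isogenic lines that carry flood tolerance loci in it. IR64(AG1) holds ANAEROBIC GERMINATION 1 with the trehalose-6-phosphate phosphatase gene TPP7, IR64(SUB1) holds SUBMERGENCE 1 with the allele SUB1A-1, and IR64(AG1,SUB1) is the pyramided line with both. IR64 and IR64(AG1) have the SUB1A-2 allele at the SUB1 locus. Each genotype is represented by 1 line, so that donor segments outside the loci cannot be told apart from the loci. All seedlings were sown and kept under water, and tissue labelled as embryo at 2 d and as coleoptile at 4, 8 and 14 d was pooled from 45 seedlings for an RNA sample. With no library here from seedlings grown in air, days of submergence and seedling age cannot be told apart. Of the 16 groups of genotype and day, 13 held 3 libraries, and 3 held 2 libraries, which were IR64(SUB1) at 8 d and the pyramided line at 2 d and at 4 d, for 45 libraries in all.

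In plants, SOD converts superoxide into hydrogen peroxide, which catalase splits into water and oxygen in peroxisomes and APX reduces with ascorbate in the cytosol, chloroplasts and other compartments. Seeds carry peroxisomes (glyoxysomes) that break down stored lipid, and green leaves carry peroxisomes in which photorespiration forms hydrogen peroxide, and the catalase genes of a plant are known to differ in which of these tissues they are used. Manganese SOD is known to reside in mitochondria, where respiration is the main source of superoxide, whereas the plastid copper/zinc SOD and the chloroplast forms of APX act beside the photosystems.

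Library depth ran from 12256409 to 24870831 counts with a median of 20459708. Levels are CPM, which are counts brought to a common library size, with that size scaled by TMM, edgeR's trimmed mean of M-values, and since no gene lengths were used they are compared between samples and not between genes. A gene was called where edgeR's quasi-likelihood test gave a Benjamini-Hochberg FDR under 0.05 over the 26180 genes together with a change of over 1 on the log2 scale in either direction. Values of 2 greening markers, the light-harvesting protein CAB-2 (OS01G0600900) and oxygen-evolving complex protein 1 of photosystem II (OS01G0501800), summed to 0 to 1.24 CPM in the libraries of 2 d and 0.0701 to 1.32 CPM at 4 d, but to 815 to 3081 CPM at 8 d and 2309.6 to 6543 CPM at 14 d. Under the label coleoptile, the samples of 8 and 14 d thus held transcripts of green tissue that those of 4 d lacked or held at most at 1.32 CPM. Over the same days, 3 glutelin genes of seed storage and 1 dehydrin gene, which had no count at 2 or 4 d, summed to 108 to 398 CPM at 2 d, 66.5 to 128 CPM at 4 d, 3.40 to 12.3 CPM at 8 d and 0 to 2.38 CPM at 14 d. At 8 d, replicate 1 stood apart from replicates 2 and 3 in the 3 genotypes that had it. The chi-square per degree of freedom between the counts of a pair, which also grows with depth, was 35.1 and 47.4 for the pairs with replicate 1 and 24.1 for replicates 2 and 3 of IR64, 36.0 and 50.6 against 16.9 for IR64(AG1), and 26.5 and 25.4 against 15.7 for IR64(AG1,SUB1). As IR64(SUB1) has no replicate 1 at 8 d, a fit with replicates 2 and 3 alone on that day was added after seeing the data, and the calls of the 10 genes in it were 26 from 4 to 8 d and 16 from 8 to 14 d, in place of 25 and 18. By the same chi-square, replicate 3 stood apart at 14 d in IR64, IR64(AG1) and IR64(SUB1), and replicate 1 in IR64(AG1,SUB1). Pairs with that replicate gave 25.5 and 22.2 against 14.7 for IR64, and 19.7 and 14.97 against 9.89 for IR64(AG1). They gave 16.5 and 25.01 against 8.28 for IR64(SUB1), and 15.7 and 24.1 against 8.73 for IR64(AG1,SUB1). A fit without these libraries of 14 d together was not made. In such bulk tissue, fewer cells of a type and less RNA per cell cannot be told apart.

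From day to day, 3 courses were seen among the 10 genes. CATA, APX8 and pCuZnSOD were low at 2 and 4 d and rose at both later steps in at least 3 of 4 genotypes, APX2 and both cytosolic SOD genes rose from 4 to 8 d in all 4 genotypes, and MnSOD fell from 8 to 14 d in all 4. Of the 12 steps of each other gene, 0 were called for CATB, 1 for APX1 and 3 for CATC. Between 2 and 4 d, 3 of the 40 tests of a gene in a genotype were called, all of them rises of CATA, against 10.5% of the tests of all genes and 6.80% called as rises. Between 4 and 8 d, 25 of 40 were called and all were rises, where 23.3% of all tests were called as rises and 32.7% in either direction. Between 8 and 14 d, 14 rises and 4 falls were called among 40, beside 13.4% and 8.90% of all tests, so that the falls were near the share of all genes. By the FDR threshold alone, 22, 34 and 30 of 40 passed at the 3 steps, where 26.0%, 55.7% and 43.3% of all tests did. The median log2 fold change of the 10 genes from 4 to 8 d was 1.24 for IR64, 1.46 for IR64(AG1), 1.62 for IR64(SUB1) and 1.30 for IR64(AG1,SUB1), and that of all genes was 0.055 to 0.091. With library totals in place of TMM, the median log2 fold change of all genes in the mean of the 4 genotypes moved by 0.40 from 4 to 8 d and by -0.12 from 2 to 4 d, so changes of that size depend on the scaling.

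**Figure D1:**
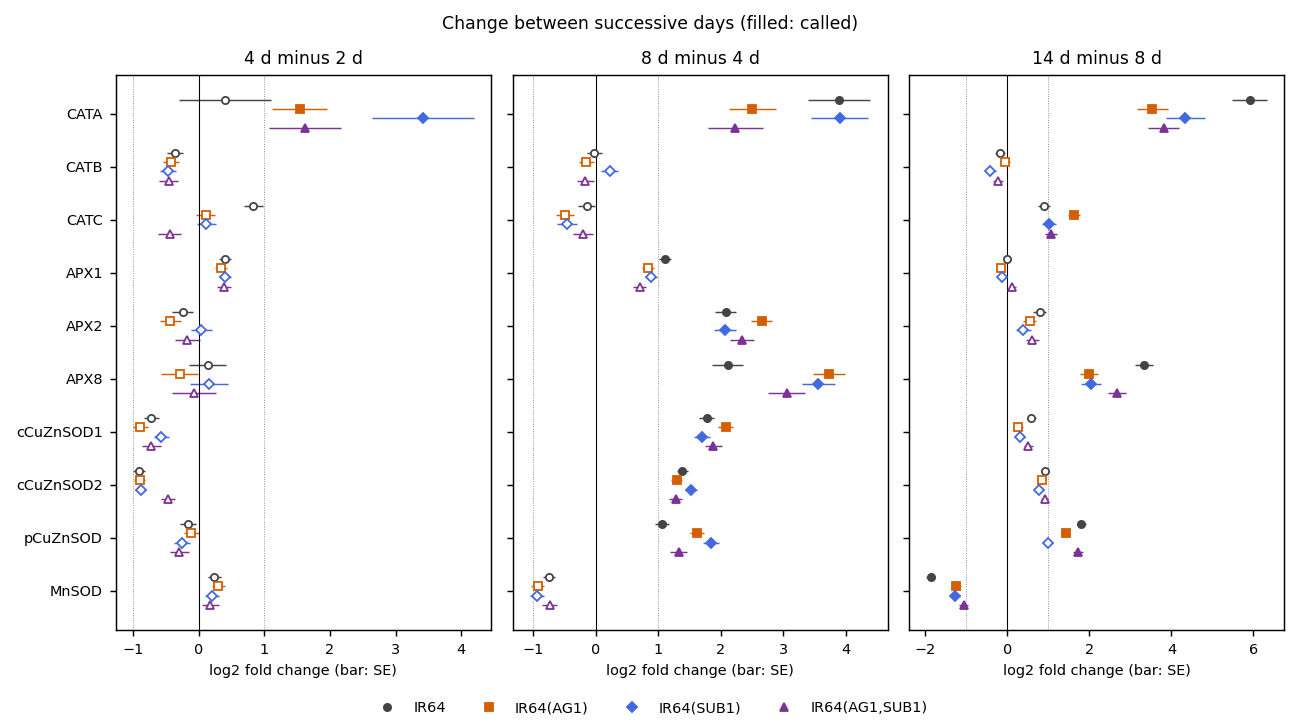
Log2 fold change of each of the 10 genes (rows) between successive days, with 1 panel for each step and 1 symbol for each genotype. Bars are standard errors, filled symbols were called and dotted lines mark log2 fold changes of -1 and 1. From 4 to 8 d the called symbols all lie to the right (25 of 40), and from 8 to 14 d MnSOD alone has called symbols on the left (4 of 4).

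CATA showed the widest range of the 3 catalase genes. Over all genotypes, its level ran from 0.258 to 7.10 CPM with a median of 1.38 in the 11 libraries of 2 d, from 0.923 to 21.1 CPM with a median of 4.53 in the 11 of 4 d, from 8.28 to 151 CPM with a median of 47.7 in the 11 of 8 d, and from 806 to 1579.9 CPM with a median of 1111 in the 12 of 14 d. Each library of 8 d lay below each library of 14 d. In IR64, CATA had 1.13, 1.10 and 1.38 CPM in replicates 1, 2 and 3 at 2 d, 1.45, 0.923 and 2.47 at 4 d, 8.28, 33.1 and 29.8 at 8 d, and 1354, 1359 and 1579.9 at 14 d. The levels of 2 and 4 d overlapped in IR64, whereas those of 8 and 14 d stood clear of them and of each other. The step from 2 to 4 d was not called in IR64, with a log2 fold change of 0.40 (SE 0.70, FDR 0.748), and was called for IR64(AG1) at 1.54 (SE 0.42, FDR 0.00607), IR64(SUB1) at 3.41 (SE 0.78, FDR 0.000756) and the pyramided line at 1.62 (SE 0.55, FDR 0.0267). The value in IR64(AG1,SUB1) rests on the 2 libraries of 2 d, which differed, and came to 0.99, FDR 0.314, without replicate 3 of 2 d, and to 2.60 without replicate 2, and its call was also lost without replicate 1 (1.68, FDR 0.0586) or replicate 2 (1.54, FDR 0.11) of 4 d. From 4 to 8 d, CATA rose in all 4 genotypes by log2 fold changes of 2.24 to 3.91, and from 8 to 14 d by 3.53 to 5.91.

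CATB did not pass the fold threshold at any step. Its level ran from 621 to 866 CPM with a median of 692 at 2 d, from 471 to 617 CPM with a median of 517 at 4 d, from 357 to 647 CPM with a median of 525 at 8 d, and from 404 to 495 CPM with a median of 440.0 at 14 d. In each genotype, every library of 4 d lay below every library of 2 d, with log2 fold changes of -0.47 to -0.37 that passed the FDR threshold in all 4 (FDR 0.00256 to 0.0215). As the mean of the genotypes, the log2 fold change was -0.43 (SE 0.064, FDR 4.59e-07) from 2 to 4 d, -0.031 (SE 0.064, FDR 0.676) from 4 to 8 d, where its sign turned with library totals, with DESeq2 and in the study's own steps (5 counts added to each gene, no filter, likelihood ratio test), and -0.23 (SE 0.062, FDR 0.00164) from 8 to 14 d. CATC was called at the last step alone. It ran from 138 to 221 CPM with a median of 159 at 8 d and from 241 to 467 CPM with a median of 369 at 14 d, and each library of 14 d was above each library of 8 d. The rise was called for IR64(AG1) at 1.62 (SE 0.15, FDR 1.43e-11), IR64(SUB1) at 1.01 (SE 0.17, FDR 5.57e-06) and the pyramided line at 1.07 (SE 0.14, FDR 1.13e-07), and in IR64 the value was 0.89 (SE 0.14, FDR 2.10e-06), past the FDR threshold alone. The call in IR64(SUB1) was near the fold threshold and was lost without replicate 3 of 8 d or replicates 1 or 2 of 14 d (0.92 at the lowest), with library totals (0.999, FDR 2.74e-06), in the study's own steps (0.97, FDR 5.49e-06) and with replicates 2 and 3 alone at 8 d (0.99, FDR 2.02e-06). That in IR64(AG1,SUB1) was lost without replicate 1 of 8 d (0.92, FDR 7.24e-06) or replicate 2 of 14 d (0.99, FDR 3.21e-06) and with replicates 2 and 3 alone at 8 d (0.89, FDR 1.01e-05).

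**Figure D2:**
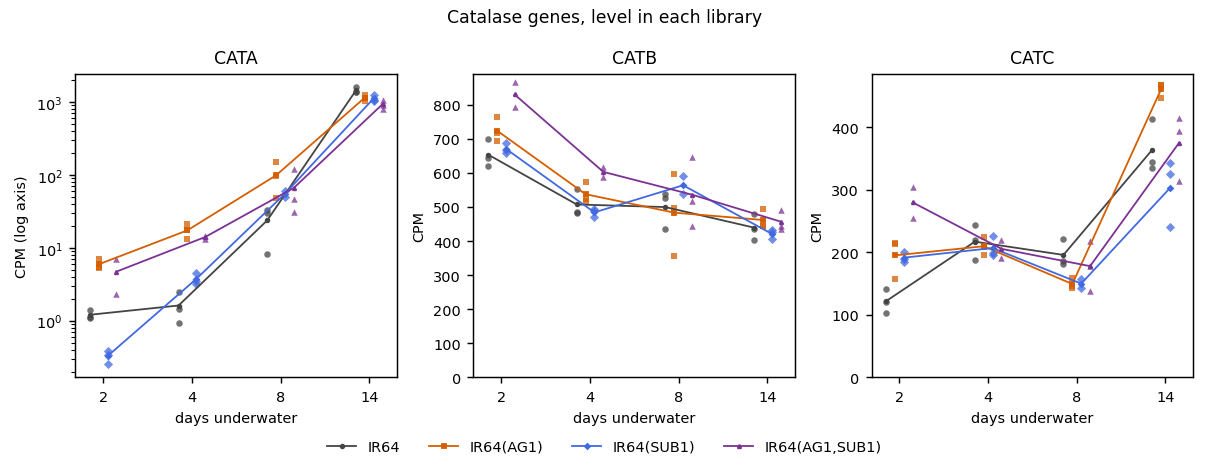
CPM of the 3 catalase genes in each library (symbols) against days underwater, with lines through the means of the genotypes and a log axis for CATA only. CATA climbs from 0.258 to 7.10 CPM at 2 d to 806 to 1579.9 CPM at 14 d, with the lines that carry AG1 above IR64 and IR64(SUB1) at 2 and 4 d, while CATB stays between 357 and 866 CPM.

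Among the APX genes, APX1 and APX2 encode cytosolic enzymes and APX8 a thylakoid-bound enzyme of the chloroplast. APX2 ran from 144 to 197 CPM with a median of 167 at 2 d, from 117 to 190.3 CPM with a median of 141 at 4 d, from 489 to 1021 CPM with a median of 684 at 8 d, and from 779 to 1284 CPM with a median of 1086 at 14 d. Every library of 8 d exceeded every library of 4 d, and the rise was called in all 4 genotypes with log2 fold changes of 2.07 to 2.65. From 8 to 14 d its log2 fold changes of 0.39 to 0.79 stayed under the fold threshold and passed the FDR threshold in 3 of 4 genotypes. APX1 ran from 286 to 435 CPM with a median of 364 at 4 d and from 641 to 821 CPM with a median of 685 at 8 d, again without overlap. This step was called for APX1 in IR64 alone at 1.10 (SE 0.092, FDR 7.71e-13), with 0.70 to 0.89 and past the FDR threshold alone in the 3 lines, and with library totals it was called in all 4 genotypes. Between 8 and 14 d, APX1 gave a mean log2 fold change of -0.038 (SE 0.047, FDR 0.491), whose sign turned with DESeq2.

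APX8 was near the low end of its range at 2 d, from 4.33 to 8.02 CPM with a median of 6.53, and at 4 d, from 3.58 to 7.39 CPM with a median of 6.02, and these days overlapped. At 8 d it reached 19.1 to 97.0 CPM (median 50.5) and at 14 d 256 to 407 CPM (median 297), with no overlap between successive days. In IR64(AG1), for example, APX8 had 5.97, 6.02 and 4.56 CPM at 4 d, 40.5, 97.0 and 81.5 at 8 d and 297, 297 and 273 at 14 d in replicates 1, 2 and 3. The rise from 4 to 8 d was called in all 4 genotypes, at 2.11 (SE 0.25, FDR 3.07e-09) for IR64, 3.73 (SE 0.25, FDR 1.93e-15) for IR64(AG1), 3.56 (SE 0.27, FDR 3.26e-14) for IR64(SUB1) and 3.05 (SE 0.29, FDR 3.65e-11) for IR64(AG1,SUB1), and so was the rise from 8 to 14 d, at 3.33, 1.98, 2.04 and 2.67 in the same order. The greening markers moved over the same days, and their part in the course of APX8 was not tested.

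The 3 genes of copper/zinc SOD enzymes rose from 4 to 8 d in all 4 genotypes, and none was called from 2 to 4 d. For cCuZnSOD1 the 11 libraries of 2 d ran from 108 to 138 CPM with a median of 121, those of 4 d from 61.6 to 95.6 CPM with a median of 73.2, those of 8 d from 231 to 317 CPM with a median of 267, and the 12 of 14 d from 294 to 406 CPM with a median of 362. For cCuZnSOD2 the levels on these days were 42.7 to 67.6 CPM (median 55.6), 27.0 to 35.3 CPM (median 31.3), 72.0 to 91.7 CPM (median 81.8) and 137 to 167 CPM (median 146). In both genes, every library of 4 d lay below every library of 2 d and every library of 8 d, so that 4 d was the low point of the course. From 2 to 4 d, log2 fold changes of -0.89 to -0.57 for cCuZnSOD1 and -0.91 to -0.48 for cCuZnSOD2 passed the FDR threshold in all 4 genotypes without a call. With library totals, the step of cCuZnSOD2 was called as a fall in IR64 (-1.06, FDR 1.16e-11) and in IR64(SUB1) (-1.004, FDR 2.90e-11). The rise from 4 to 8 d was called in all 4 genotypes for each, with log2 fold changes of 1.71 to 2.08 for cCuZnSOD1 and 1.28 to 1.53 for cCuZnSOD2. From 8 to 14 d, neither was called in any genotype. Log2 fold changes of 0.26 to 0.59 for cCuZnSOD1 passed the FDR threshold in 2 of 4 genotypes, and 0.76 to 0.92 for cCuZnSOD2 in all 4. With DESeq2, the last step of cCuZnSOD2 was called in IR64 (1.01, FDR 2.26e-34).

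The plastid gene pCuZnSOD had 61.8 to 80.6 CPM (median 73.0) at 2 d and 58.8 to 70.3 CPM (median 63.5) at 4 d, which overlapped, then 114 to 224 CPM (median 165) at 8 d and 383 to 595 CPM (median 514) at 14 d, which did not. Its rise was called in all 4 genotypes from 4 to 8 d (1.06 to 1.84) and in 3 of 4 from 8 to 14 d (0.995 to 1.81). The call in IR64 from 4 to 8 d was lost without replicate 2 of IR64 at 8 d (0.95, FDR 3.12e-08). In IR64(SUB1) the last step stood just under the fold threshold at 0.995 (SE 0.13, FDR 9.50e-08), and it was past it with the replicate number as a model term, with DESeq2, and without replicate 3 of 8 d or replicates 1 or 2 of 14 d. Across the means of the 16 groups, log2 levels of pCuZnSOD and APX8 had a Pearson r of 0.99, which describes 16 points that share their days and libraries.

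MnSOD took the opposite course and was highest in IR64 on the first 3 days. In IR64 it had 1024, 1149 and 1032 CPM at 2 d, 1235, 1258 and 1276 at 4 d, 828, 814 and 599.8 at 8 d and 216, 199 and 200.1 at 14 d in replicates 1, 2 and 3. In IR64(AG1) the values were 577, 574 and 665, then 720.5, 758 and 754, then 464, 367 and 342, and 167, 168 and 161 CPM. IR64(SUB1) had 597, 597 and 600.0 CPM at 2 d, 703, 682 and 675 at 4 d, 377 and 337 in replicates 2 and 3 at 8 d and 148, 149 and 149 at 14 d. Every genotype was thus lowest at 14 d, and on 2, 4 and 8 d every IR64 library stood above those of both lines. IR64(AG1,SUB1) was near the other lines, with 665 and 579 CPM in replicates 2 and 3 at 2 d, 706 and 697 in replicates 1 and 2 at 4 d, 456, 434 and 369 at 8 d and 189, 215 and 198 at 14 d. From 4 to 8 d, log2 fold changes of -0.94 to -0.74 passed the FDR threshold alone in all 4 genotypes. The fall from 8 to 14 d was called in all 4, at -1.87 (SE 0.11, FDR 7.89e-17) for IR64, -1.24 (SE 0.10, FDR 2.28e-12) for IR64(AG1), -1.27 (SE 0.11, FDR 2.05e-11) for IR64(SUB1) and -1.07 (SE 0.10, FDR 9.43e-11) for IR64(AG1,SUB1).

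**Figure D3:**
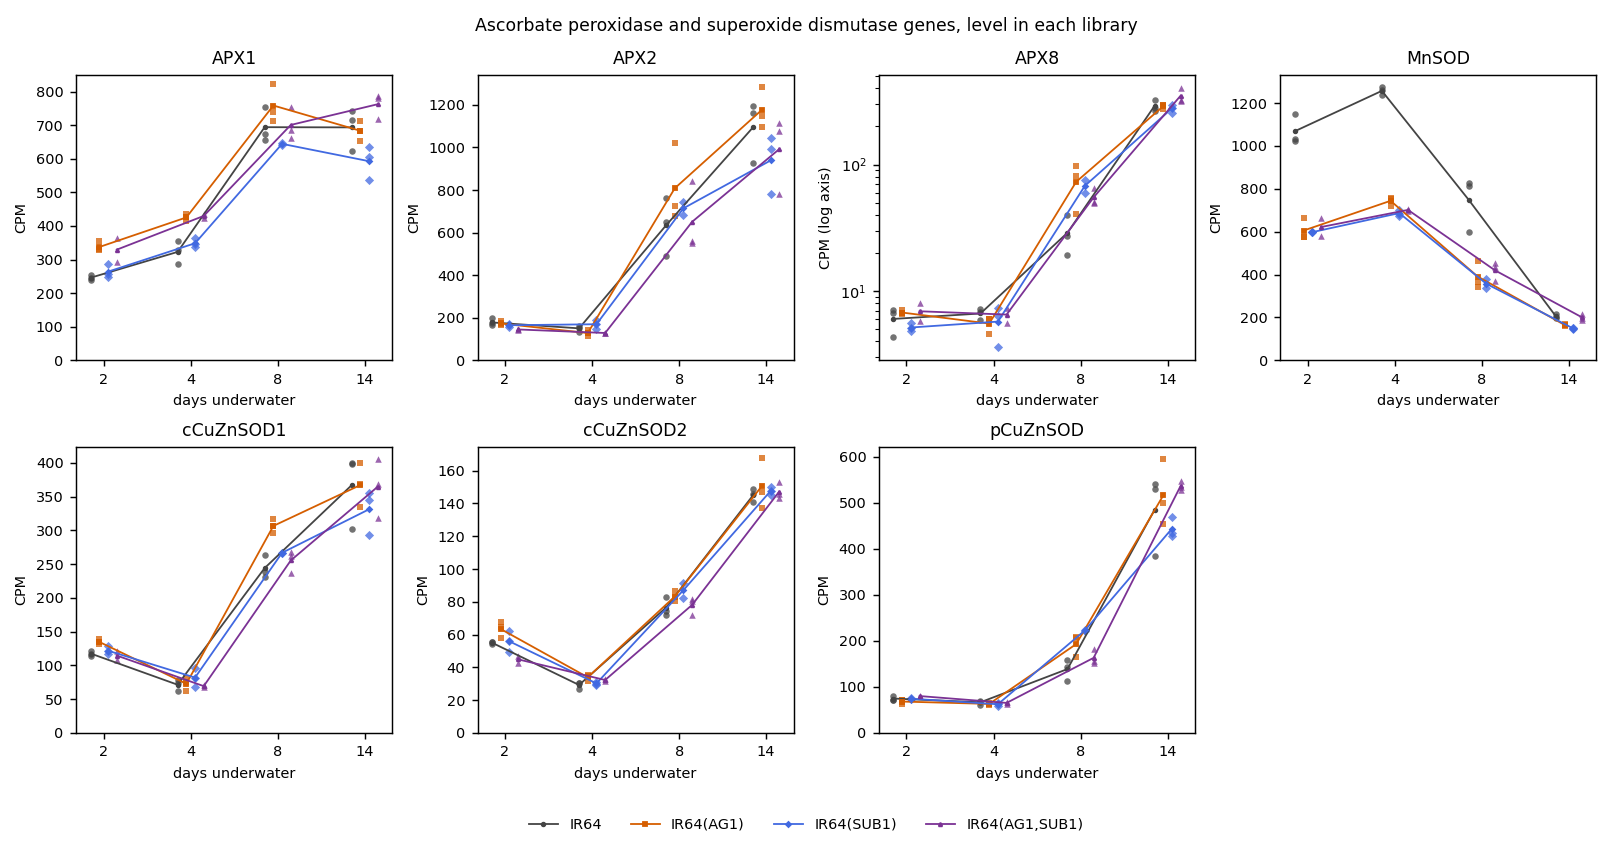
CPM of the 3 APX and 4 SOD genes in each library (symbols) against days underwater, with lines through the means of the genotypes and a log axis for APX8 only. MnSOD is the gene in which IR64 runs apart, with means of 1069, 1257 and 747 CPM at 2, 4 and 8 d above all libraries of the 3 lines, and each of the other genes lies higher in all libraries of 8 d than in those of 4 d.

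Against IR64 on the same day, MnSOD had negative log2 fold changes in each of the 3 lines. At 2 d its log2 fold change was -0.82 (SE 0.10, FDR 1.34e-06) for IR64(AG1), -0.84 (SE 0.10, FDR 3.42e-07) for IR64(SUB1) and -0.78 (SE 0.12, FDR 1.45e-05) for IR64(AG1,SUB1). At 4 d the values in the same order were -0.76 (SE 0.10, FDR 6.34e-06), -0.87 (SE 0.10, FDR 1.50e-07) and -0.84 (SE 0.12, FDR 6.05e-06), and at 8 d they were -0.93 (SE 0.10, FDR 5.60e-08), -1.06 (SE 0.12, FDR 4.70e-08) and -0.83 (SE 0.10, FDR 3.66e-07). All 9 passed the FDR threshold and only that of IR64(SUB1) at 8 d passed the fold threshold, a call that was lost with library totals (-0.99, FDR 7.86e-09) and without replicate 1 of IR64 (-0.98, FDR 8.76e-07), replicate 2 of IR64 (-0.999, FDR 8.73e-07) or replicate 3 of IR64(SUB1) at 8 d (-0.99, FDR 9.85e-05). At 14 d, the values were -0.31, -0.47 and -0.032, and IR64(AG1,SUB1) overlapped with IR64. Over the 30 tests of the 10 genes in the lines on a day, 10 passed the FDR threshold at 2 d, 7 at 4 d and 11 at 8 d, beside 5.43%, 1.31% and 5.42% of all tests. Between the lines, MnSOD passed the FDR threshold in 1 of 12 comparisons, IR64(AG1,SUB1) minus IR64(SUB1) at 14 d, at 0.43 (SE 0.10, FDR 0.00673), and 3.85% of all tests between lines did.

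In the pyramided line, the MnSOD level was not at the sum of the log2 differences of the lines with 1 locus each. The interaction of the loci, which is the effect of AG1 in the presence of SUB1 minus its effect in IR64 on the log2 scale, was 0.88 (SE 0.15, FDR 0.000374) at 2 d, 0.79 (SE 0.15, FDR 0.00376) at 4 d, 1.17 (SE 0.15, FDR 2.83e-06) at 8 d and 0.75 (SE 0.15, FDR 0.00105) at 14 d. It passed the FDR threshold on all 4 days and the fold threshold at 8 d, and over the 10 genes 9 of 40 tests passed the FDR threshold, where 5.17% of all tests did. At 4 d the FDR was over the threshold in the study's own steps. The 4 tests share the IR64 libraries with the comparisons above and are not independent of them. At 2, 4 and 8 d, all lines stood about equally below IR64, and the contrast is then positive by arithmetic. On those days it restates the differences from IR64 and is not a separate result.

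CATA separated the genotypes early. At 2 d it had 7.05, 5.41 and 5.33 CPM in replicates 1, 2 and 3 of IR64(AG1), 7.10 and 2.31 CPM in replicates 2 and 3 of IR64(AG1,SUB1) and 0.389, 0.258 and 0.338 CPM in IR64(SUB1), against 1.13, 1.10 and 1.38 CPM in IR64. At 4 d the values were 13.4, 17.4 and 21.1 CPM in IR64(AG1), 13.4 and 14.7 CPM in replicates 1 and 2 of IR64(AG1,SUB1) and 3.22, 4.53 and 3.45 CPM in IR64(SUB1), against 1.45, 0.923 and 2.47 CPM in IR64. On both days each library of the lines with AG1 was above each library of IR64 and of IR64(SUB1). These are low levels, with 14 to 21 counts per library in IR64 and 3 to 8 in IR64(SUB1) at 2 d.

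In IR64(AG1), the log2 fold change of CATA against IR64 was 2.31 (SE 0.57, FDR 0.0228) at 2 d and 3.44 (SE 0.51, FDR 2.52e-05) at 4 d, and both were called. In IR64(AG1,SUB1) it was 1.92 (SE 0.66, FDR 0.0561) at 2 d, without a call in the main fit, and 3.14 (SE 0.55, FDR 0.000295) at 4 d, with a call. In IR64(SUB1) it was -1.81 (SE 0.95, FDR 0.332) at 2 d and 1.21 (SE 0.59, FDR 0.547) at 4 d, neither called. The call in IR64(AG1) at 2 d was lost without any 1 of the 3 IR64 libraries or replicate 1 of IR64(AG1), with FDR up to 0.112 and log2 fold changes of 2.02 to 2.41 over all alternatives. Both calls at 4 d stayed in every alternative. Between the lines, 4 of 120 tests of the 10 genes over the 4 days were called, against 1.77% for all genes, and all 4 were of CATA. IR64(SUB1) minus IR64(AG1) was -4.11 (SE 0.72, FDR 0.000132) at 2 d and -2.24 (SE 0.44, FDR 0.00164) at 4 d, and IR64(AG1,SUB1) minus IR64(SUB1) was 3.73 (SE 0.82, FDR 0.00231) and 1.94 (SE 0.48, FDR 0.0268). The last of these was lost with any of its 5 libraries left out (1.83 to 2.08, FDR up to 0.243), and the one at 2 d was lost without replicate 2 of IR64(AG1,SUB1) (FDR 0.12). Fits with a library left out also used another estimate of spread than the main fit, so such losses cannot be put down to the library alone. IR64(AG1,SUB1) minus IR64(AG1) was -0.38 at 2 d and -0.30 at 4 d, with overlapping libraries.

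At 2 d, CATC and APX1 also differed from IR64. CATC had 121, 142 and 103 CPM in IR64, 157, 214 and 215 in IR64(AG1), 190.0, 200.0 and 184 in IR64(SUB1) and 305 and 254 in replicates 2 and 3 of IR64(AG1,SUB1), and the IR64 libraries were the lowest 3. The difference was called in IR64(AG1,SUB1) at 1.2 (SE 0.16, FDR 1.97e-06) and passed the FDR threshold alone in IR64(AG1) at 0.68 (SE 0.14, FDR 0.00565) and in IR64(SUB1) at 0.65 (SE 0.14, FDR 0.00431). At 4 d the CATC levels of each line overlapped those of IR64, and the step from 2 to 4 d in IR64(AG1,SUB1) minus that in IR64 was called at -1.28 (SE 0.23, FDR 0.00492). APX1 levels were above those of IR64 in both lines with AG1 at 2 d, with 330.3, 327 and 355 CPM in IR64(AG1) and 365 and 293 in IR64(AG1,SUB1) against 244, 239 and 255 in IR64, and its log2 fold changes of 0.46 (SE 0.091, FDR 0.00271) and 0.42 (SE 0.10, FDR 0.00531) passed the FDR threshold alone. At 4 d they were 0.40 (SE 0.091, FDR 0.0184) and 0.41 (SE 0.10, FDR 0.02), and in IR64(SUB1) the values were 0.10 at 2 d and 0.11 at 4 d, with libraries that overlapped those of IR64. For CATB, APX2 and both cytosolic SOD genes, log2 fold changes against IR64 at 2 and 4 d were -0.29 to 0.34, of which 1 of 24 passed the FDR threshold, and at 8 and 14 d they were -0.22 to 0.35, of which 0 of 24 did. Of the tests of all genes, 5.43% passed the FDR threshold at 2 d, 1.31% at 4 d and 5.42% at 8 d, and the share at 14 d is not given here. In all, 2 of 30 tests of the 10 genes in the lines against IR64 were called at 2 d and 2 of 30 at 4 d, where 2.24% and 0.845% of the tests of all genes were called. The count at 2 d was 3 with no filter, with the replicate number as a model term and in the study's own steps. It was also 3 in a fit restricted to the groups compared and with replicates 2 and 3 alone at 8 d. With DESeq2 it was 4, and with library totals it stayed at 2.

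**Figure D4:**
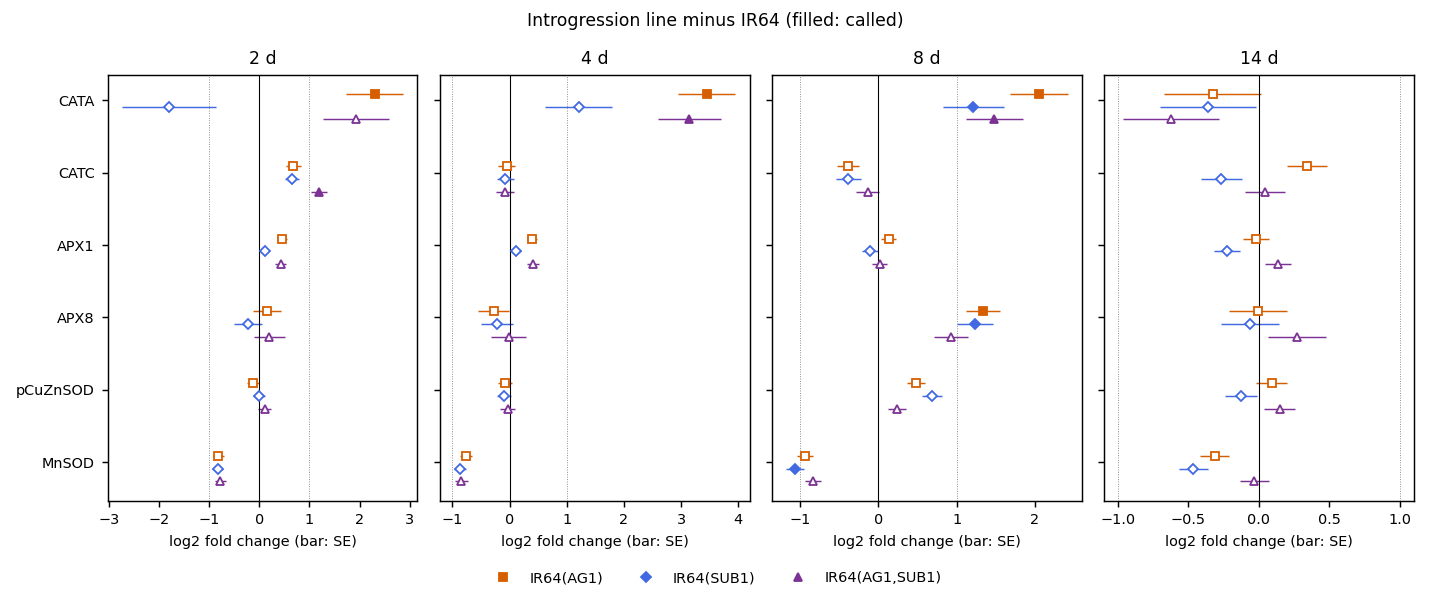
Log2 fold change of each introgression line against IR64 for 6 of the genes (rows) on each day (panels, each with its own axis), with bars of 1 standard error. Filled symbols were called and dotted lines mark log2 fold changes of -1 and 1. MnSOD lies between -1.06 and -0.76 in all lines at 2, 4 and 8 d, CATA lies highest in the lines with AG1 at 4 d, and no symbol is filled at 14 d.

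At 8 d, 6 of 30 tests in the lines against IR64 were called, 5 higher and 1 lower, where 1.22% and 1.09% of the tests of all genes were called in these directions. They were CATA in all 3 lines, APX8 in IR64(AG1) and IR64(SUB1), and MnSOD in IR64(SUB1). CATA had 8.28, 33.1 and 29.8 CPM in replicates 1, 2 and 3 of IR64, 47.7, 96.5 and 151 in IR64(AG1), 49.9 and 60.2 in replicates 2 and 3 of IR64(SUB1) and 31.1, 47.1 and 120.3 in IR64(AG1,SUB1). Replicate 1 was the lowest in each genotype that had one, and only IR64(AG1,SUB1) overlapped with IR64. APX8 had 19.1, 40.1 and 27.4 CPM for IR64, 40.5, 97.0 and 81.5 for IR64(AG1), 75.8 and 59.9 for IR64(SUB1) and 49.6, 50.5 and 64.7 for IR64(AG1,SUB1), so that every library of the lines was above those of IR64. For CATA the log2 fold changes were 2.05 (SE 0.37, FDR 0.000498) for IR64(AG1), 1.21 (SE 0.39, FDR 0.0452) for IR64(SUB1) and 1.48 (SE 0.36, FDR 0.0222) for IR64(AG1,SUB1). For APX8 they were 1.34 (SE 0.22, FDR 0.000133), 1.23 (SE 0.23, FDR 0.000724) and, past the FDR threshold alone, 0.93 (SE 0.22, FDR 0.0131). The plastid gene pCuZnSOD, with 114, 158 and 144 CPM in IR64, 165, 206 and 207 in IR64(AG1) and 221 and 224 in IR64(SUB1), passed the FDR threshold alone in these lines, at 0.48 (SE 0.11, FDR 0.00788) and 0.68 (SE 0.12, FDR 0.000436).

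Without replicate 1 of IR64, 2 of the 3 CATA calls at 8 d were lost. The log2 fold change of IR64(SUB1) was 0.81, FDR 0.288, and that of IR64(AG1,SUB1) was 1.08, FDR 0.258, and with the loss of the MnSOD call 3 of the 6 calls were left. The call of CATA in IR64(AG1) stayed with each library left out in turn, at 1.60 to 2.38. The call of IR64(SUB1) was also lost without replicate 2 (1.34, FDR 0.113) or replicate 3 (1.07, FDR 0.292) of that line, with DESeq2 and in the study's own steps. Without replicate 3 of IR64(AG1,SUB1), the log2 fold change of CATA in that line was 0.72, FDR 0.558. With replicates 2 and 3 alone on this day, 5 calls were made, and those of IR64(SUB1) changed to 0.79, FDR 0.0915, for CATA and to 0.99, FDR 0.000775, for APX8, while MnSOD in IR64(AG1) was called at -1.02, FDR 6.10e-08. When the fit held no libraries but those of the 2 groups, 1 of the 6 calls was left, that of MnSOD, with FDR of 0.0773 to 0.715 for CATA and APX8.

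The greening markers differed between the genotypes at 8 d as well. Their sum was 877, 1768 and 815 CPM in replicates 1, 2 and 3 of IR64, 1699, 3081 and 2798 in IR64(AG1), 2664 and 1928 in replicates 2 and 3 of IR64(SUB1) and 2006, 1684 and 1861 in IR64(AG1,SUB1). The lowest 2 libraries were of IR64 and the highest was of IR64(AG1), and replicate 2 of IR64 lay among the lines. APX8 had the same lowest 2 libraries and the same highest library as the markers, while CATA was highest in replicate 3 of IR64(AG1). The part of the greening in the differences of CATA, APX8 and pCuZnSOD at 8 d was not tested.

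**Figure D5:**
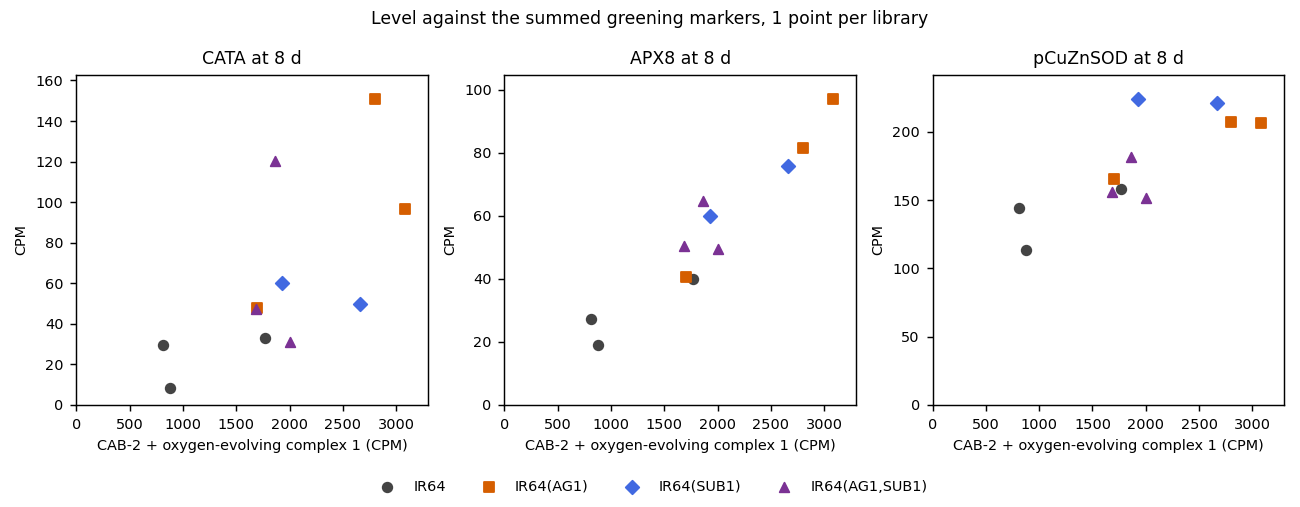
CPM of CATA, APX8 and pCuZnSOD (panels) against the summed CPM of the 2 greening markers in the 11 libraries of 8 d, with 1 symbol for each genotype. The IR64 libraries lie at marker sums of 877, 1768 and 815 CPM and at APX8 levels of 19.1, 40.1 and 27.4 CPM, and the IR64(AG1) library with the highest marker sum (3081 CPM) has the highest APX8 level (97.0 CPM).

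At 14 d, no test of the 10 genes in the lines against IR64 was called (0 of 30, beside 0.932% of the tests of all genes). In edgeR's test, an unadjusted p under 0.05 was given to 2 of 10 genes for IR64(AG1), 2 for IR64(SUB1) and 0 for IR64(AG1,SUB1), and DESeq2 also called 0. The share of all genes with such a p was not counted, so these counts have no value of all genes beside them. CATA had 1354, 1359 and 1579.9 CPM for IR64, 1033, 1243 and 1145 for IR64(AG1), 1041, 1060.0 and 1242 for IR64(SUB1) and 806, 1077 and 905 for IR64(AG1,SUB1). The 3 IR64 libraries were now the highest of the 12, with log2 fold changes in the lines of -0.33, -0.36 and -0.62 that did not pass the FDR threshold. APX8 overlapped between IR64 and each line at 14 d, at means of 291 CPM for IR64, 289 for IR64(AG1), 278 for IR64(SUB1) and 350.4 for IR64(AG1,SUB1).

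Tests of the steps themselves compared the lines with IR64. Over the 3 lines and 3 steps, 7 of 90 tests of a line's step minus that of IR64 were called, against 0.307% for all genes. For APX8, the step from 4 to 8 d was larger than in IR64 by 1.62 (SE 0.35, FDR 0.0202) in IR64(AG1) and 1.45 (SE 0.36, FDR 0.0424) in IR64(SUB1), and the step from 8 to 14 d was smaller, at -1.35 (SE 0.30, FDR 0.0418) and -1.30 (SE 0.31, FDR 0.0447). For CATA, the step from 8 to 14 d gave -2.38 (SE 0.50, FDR 0.0303) in IR64(AG1) and -2.10 (SE 0.50, FDR 0.0416) in IR64(AG1,SUB1). Of these 7 calls, only that of CATC from 2 to 4 d stayed in all alternatives, and without replicate 1 of IR64 at 8 d it was the 1 call left. Each of the other 6 was lost with 6 to 9 of the libraries it rests on left out in turn, in fits that also used another estimate of spread than the main fit.

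The interaction of the loci was called in 3 of 40 tests, all at 8 d, where 7.27% of all genes were called on that day and 3.05% over the 4 days. For APX8 it was -1.64 (SE 0.32, FDR 0.000503) and for CATA -1.78 (SE 0.52, FDR 0.0194), so that both were lower in the pyramided line than the sum of the effects of the 2 loci, and for MnSOD it was higher. At 8 d, all lines lay on the same side of IR64 in each of these genes, and the interaction in part restates those differences. The value of APX8 stayed called in all alternatives. That of CATA was lost without replicate 1 of IR64 (-1.38, FDR 0.0679), replicate 3 of IR64(AG1) (-1.34, FDR 0.108), replicate 3 of IR64(SUB1) (-1.64, FDR 0.0917) and replicates 1 (-1.45, FDR 0.0603) or 2 (-1.59, FDR 0.0642) of IR64(AG1,SUB1). For pCuZnSOD, the interaction at 8 d was -0.93 (SE 0.17, FDR 0.000258), past the FDR threshold alone.

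As the lines carry donor segments, the genes beside the members were counted in the order of their identifiers. Of the 50 tested genes nearest to CATA on chromosome 2, 5 were called in IR64(AG1) against IR64 at 2 d, 4 at 4 d and 6 at 8 d, with called genes in both directions, where 0.913%, 0.596% and 2.52% of all genes were called. In IR64(AG1,SUB1) it was 2 of 50 at 4 d, beside 1.08% of all genes. Beside MnSOD on chromosome 5, 5 of 50 were called in IR64(AG1), 6 for IR64(SUB1) and 9 in the pyramided line against IR64 at 2 d, where 0.913%, 1.54% and 4.28% of all genes were. In the same order of lines it was 3, 3 and 5 of 50 at 4 d, beside 0.596%, 0.856% and 1.08%. At 8 d it was 6, 5 and 5 of 50, beside 2.52%, 3.53% and 0.905%. At 14 d it was 2, 2 and 3 of 50, beside 0.336%, 0.699% and 1.76%. Between the lines, 0 to 2 of these 50 neighbours of MnSOD were called in each of the 12 comparisons. Whether CATA or MnSOD lies in a donor segment was not tested.

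As a description of the courses, log2 levels were correlated over the means of the 16 groups, which share days and libraries. MnSOD had negative Pearson r with 8 of the other 9 genes, from -0.93 with pCuZnSOD to -0.67 with CATC, and 0.57 with CATB. APX8 had 0.99 with pCuZnSOD, 0.96 with APX2 and 0.94 with CATA. Of the genes outside the 10, the most alike was a transferase family gene (OS05G0449200) for CATA with r of 0.98, a gene with a thioredoxin fold (OS01G0174900) for CATB with 0.95, a gene with a nucleic acid-binding domain (OS03G0844900) for APX8 with 0.997 and an ABC transporter-like gene (OS01G0121700) for cCuZnSOD1 with 0.996. Such values are common in these data, since 2630 genes had r over 0.95 with APX8 and 225 with CATA, but only 1 with CATB and 0 with CATC.

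Other genes that form or remove hydrogen peroxide were described where the study's tables annotate them. Glycolate oxidase forms hydrogen peroxide in leaf peroxisomes during photorespiration. As the mean of the 4 genotypes, of the 2 genes annotated as this enzyme, 1 was called higher from 4 to 8 d, OS03G0786100 with a log2 fold change of 4.55 (SE 0.22, FDR 1.83e-20), and both were called higher from 8 to 14 d, OS03G0786100 with 3.60 (SE 0.14, FDR 6.48e-23) and OS07G0152900 with 2.46 (SE 0.077, FDR 1.21e-25), where 37.7% and 27.0% of all genes were called. From 4 to 8 d, OS07G0152900 had -0.46 (SE 0.078, FDR 1.65e-06), past the FDR threshold alone and in the other direction. The third gene listed for this enzyme, OS04G0623500, had 0.40 (SE 0.10, FDR 0.000412) from 4 to 8 d and -0.54 (SE 0.092, FDR 2.99e-06) from 8 to 14 d. Thus 1 of 3 and 2 of 3 listed genes were called higher at these steps and 0 lower. The study's annotation tables do not name OS04G0623500 as this enzyme. The paper's text does name a GLYCOLATE OXIDASE 3 on chromosome 4, in another identifier system, among the genes advanced in IR64(SUB1). Whether it is OS04G0623500 was not checked. A respiratory burst oxidase homolog (OS01G0360200), of the NADPH oxidases that form superoxide at the plasma membrane, rose by 1.01 (SE 0.16, FDR 7.12e-07) and 1.19 (SE 0.15, FDR 5.03e-09) at these steps. A list of 12 genes of chromosome 1 annotated as thioredoxins, glutaredoxins, gamma-glutamyl transferases or related reductases was put together after the data had been seen. Of its 10 tested genes, 7 were called higher and 1 lower from 4 to 8 d, where 37.7% of all genes were called in either direction. The median log2 fold change was 2.61 beside 0.093 for all genes. That median includes genes near 0 CPM, such as OS01G0241400, with 3.68 at a mean of only 0.12 CPM at 8 d. The widest steps in the list were of the gamma-glutamyl transferase genes OS01G0151500, with at most 0.455 CPM at 4 d and 1.60 to 6.96 CPM at 8 d, and OS01G0151400, with at most 0.322 CPM at 4 d and 1.60 to 7.65 CPM at 8 d.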

How the data were processed

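RNA was measured by RNA-seq in 45 libraries. According to the methods and labels, the authors trimmed paired reads, aligned them with TopHat2 2.0.14 and Bowtie2 2.2.5 to the japonica genome IRGSP-1.0 with SUB1A-1 added, and counted reads on exons in union mode. The deposited values are raw counts per gene, without normalization. IR64 is indica, and a loss of reads that differ from japonica was not tested. The libraries were strand-specific, and whether counting used strand is not given in the sources used here. Positions and sequences are not analysed here.

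The counts were fitted with edgeR 4.0.16 in R 4.3.3 (filterByExpr on the 16 groups, TMM, quasi-likelihood, 1 coefficient per group, all 45 libraries), and each contrast was adjusted by Benjamini-Hochberg over 26180 genes. Standard errors are the log2 fold change over the root of F. The script was tested on simulated data. Depth was 12256409 to 24870831 counts. The methods describe biological triplicates, and the labels give only replicate numbers. The p-values weigh each difference against the spread among replicates, which was estimated over all 16 groups together.

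Alternatives were DESeq2 1.42.0, no filter, library totals, the study's steps, the replicate number as a term and a fit restricted to the groups being compared. Each library was also left out in turn and, added after seeing the data, replicates 2 and 3 only were used at 8 d. With a library left out, the contrasts of its group were refitted with the scaling factors and the trended estimate of spread from all libraries. The main fit was not given that estimate, so these fits differ from it in this setting too. A call lost in them can thus not be put down to the left-out library alone. The 10 genes and the lists were chosen with earlier results of these data known. All 10 were to be named, with the 2 widest called mean steps from 4 to 8 d per list and the most alike annotated gene of each. Of 47 list genes written down from family names, 42 were dropped because the study's tables do not annotate them. Of the greening markers, CAB-2 was in the plan and oxygen-evolving complex protein 1 was not. The seed genes used were not those planned, and the other planned markers were not used.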

Additional observations from a re-analysis of the deposited data

Results flagged for a closer look

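In 10 cases, a difference between groups in the same contrast passed edgeR's quasi-likelihood test of that difference itself. At 8 d, the effect of AG1 in the presence of SUB1 differed from its effect in IR64 by a log2 value of -1.78 (SE 0.52, FDR 0.0194) for CATA, -1.64 (SE 0.32, FDR 0.000503) for APX8 and 1.17 (SE 0.15, FDR 2.83e-06) for MnSOD. From 2 to 4 d, the step of CATC in IR64(AG1,SUB1) differed from that in IR64 by -1.28 (SE 0.23, FDR 0.00492). From 4 to 8 d, the step of APX8 differed from that in IR64 by 1.62 (SE 0.35, FDR 0.0202) in IR64(AG1) and 1.45 (SE 0.36, FDR 0.0424) in IR64(SUB1). From 8 to 14 d, it differed by -1.35 (SE 0.30, FDR 0.0418) in IR64(AG1) and -1.30 (SE 0.31, FDR 0.0447) in IR64(SUB1). For CATA, the step from 8 to 14 d differed by -2.38 (SE 0.50, FDR 0.0303) in IR64(AG1) and -2.10 (SE 0.50, FDR 0.0416) in IR64(AG1,SUB1).

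APX8 and MnSOD at 8 d and CATC from 2 to 4 d stayed called in all alternatives, with FDR of 4.65e-06 to 0.0492, 3.25e-10 to 0.0195 and 4.65e-08 to 0.0276. The other 7 lost the call in at least 1 alternative, with the FDR reaching 0.217 for CATA at 8 d, 0.183 and 0.166 for APX8 from 4 to 8 d, 0.395 and 0.206 for APX8 from 8 to 14 d, and 0.347 and 0.407 for CATA from 8 to 14 d. Each of the 7 was lost without replicate 1 of IR64 at 8 d. The interaction tests and the steps at 8 d share libraries and are not independent. For CATA, APX8 and MnSOD at 8 d, all lines lay on the same side of IR64, which the interaction in part restates. Groups of 2 or 3 libraries are too small for a test of single outlying values. Replicate 1 of 8 d stood apart from replicates 2 and 3 over all genes, with the values given in the report. At 14 d, replicate 3 of IR64, IR64(AG1) and IR64(SUB1) and replicate 1 of IR64(AG1,SUB1) also stood apart.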

How the results depend on the processing

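Of the 82 called values of the 10 genes, 61 stayed called under all alternatives and 21 were lost under at least 1, and none of the 82 changed direction. MnSOD from 8 to 14 d in IR64(AG1,SUB1) was lost with DESeq2 alone, at -0.998. The number of calls moved by over 1.5 times in 4 cases apart from single libraries. Calls from 2 to 4 d went from 3 to 5 with library totals, since 2 steps of cCuZnSOD2 passed the fold threshold, and calls against IR64 at 2 d from 2 to 4 with DESeq2. In a fit restricted to the groups being compared, which leaves fewer libraries to estimate the spread, calls against IR64 at 8 d went from 6 to 1 and those of a line's step against that of IR64 from 7 to 2.

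With each library left out in turn, calls from 2 to 4 d were 2 to 3, from 4 to 8 d 24 to 26, from 8 to 14 d 17 to 18, against IR64 at 2 d 1 to 3 and at 8 d 3 to 7, between the lines 3 to 5, of the interaction 2 to 4 and of a line's step against that of IR64 1 to 8. At 2 d, calls against IR64 dropped to 1 without any IR64 library or replicate 1 of IR64(AG1). At 8 d, they dropped to 3 without replicate 1 of IR64. Calls of a line's step dropped to 1 without replicate 1 of IR64 at 8 d, to 3 without replicate 1 and 4 without replicate 2 of IR64 at 14 d, and to 4 without replicate 2 or 3 of IR64(AG1) at 8 d. Counts against IR64 at 4 d (2) and 14 d (0) and of the mean steps (12) did not move.

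The sign turned for 4 mean steps, none of them called. From 4 to 8 d, CATB was -0.031, and 0.36 with library totals, 0.15 in the study's steps, 0.059 with DESeq2 and -0.076 to 0.013 with a library left out. CATC was -0.33, and 0.070 with library totals. From 2 to 4 d, APX8 was -0.021, and 0.0074 in the study's steps and -0.084 to 0.046 with a library left out. From 8 to 14 d, APX1 was -0.038, and 0.028 with DESeq2. With library totals the median of all genes moved with the scaling (values in the report), and the cause of the other turns was not tested.

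The replicate numbers were not taken as a pairing in the main fit. Deviations of same-numbered libraries had a correlation over 0.1 in 0 of 15 pairs at 2 d and 0 of 15 at 4 d. At 8 d this was so in 9 of 15 pairs and at 14 d in 8 of 18. The median correlation was 0.115 for same-numbered and -0.063 for different-numbered pairs at 8 d, and 0.092 and -0.075 at 14 d. On these later days, same-numbered libraries thus shared part of their deviations, which the main fit does not model. With the replicate block, calls were 3 against IR64 at 2 d and 19 from 8 to 14 d in place of 2 and 18, pCuZnSOD from 8 to 14 d in IR64(SUB1) was called at 1.02, and no call was lost. Depth limits CATA at 2 d most, where IR64(SUB1) had 3 to 8 counts per library, and groups of 2 libraries rest on the spread of the other groups when 1 is left out.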
